A study of Mus musculus with 4 samples.

Results

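The matrix protease stromelysin 1, encoded by Mmp3, and the tissue inhibitors of metalloproteinases, encoded by Timp1, Timp2 and Timp3, were followed clone by clone in mouse heart ventricles. The members were all printed cDNA clones that the platform annotation assigns to exactly 1 of these 4 symbols, and 5 of the 16471 clones compared met that rule. Mmp3 had 1 clone, Timp1 had 1 and Timp3 had 3, called A, B and C here in the order of their feature numbers. Timp2 had 0, because its 2 clones carry a second symbol as well. The members were proposed with the salt contrast of these same arrays in view, in which Mmp3 was among the genes with the lowest ratios. Their values for that contrast are therefore a description, without a test.

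All 6 mice were males of the labelled strain background 129Ola/C57BL/6J, from a backcross given as N5–6, wild type and marked 1-renin. They were 7 to 8 weeks old at the start and 12 to 13 weeks old when the labels give their age. Every mouse had 1 kidney removed, ate food with 0.5 mg Na per g and received deoxycorticosterone acetate (DOCA), a mineralocorticoid, for 5 weeks. The 3 high-salt mice drank 1% NaCl for 5 weeks while plain tap water was given to the 3 low-salt mice, so the comparison is of salt intake under DOCA. Hearts without DOCA or with both kidneys were not analysed here. RNA of both ventricles with the septum was compared on 4 printed cDNA arrays with 2 dyes, 1 high-salt against 1 low-salt heart on each. High-salt RNA had Cy3 on arrays 1 and 2 and Cy5 on arrays 3 and 4. The mice of array 2 were hybridised again on array 4 with exchanged dyes, and both arrays were averaged, which left 3 animal pairs.

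Each value is a log ratio as the authors deposited it, taken as log2 and as high over low salt. The base is an assumption. The direction is likely, since the titles of all 4 arrays name high against low salt, but it is not settled. Arrays of opposite dye correlated at r between -0.37 and -0.07 over 16471 clones, and arrays of the same dye at 0.57 and 0.43. For arrays 2 and 4, the same 2 mice with exchanged dyes, r was -0.07, and the pair 2 values average these arrays. Values with arrays 1 and 2 turned in sign are therefore given too. That is the reading in which the ratios of swapped arrays had not been turned, and the overall sign then also depends on which dye was the numerator. Ratios carry no level, so the labelled tissue could not be checked by the abundance of its markers. In pieces of ventricle, fewer cells of a type and less RNA per cell cannot be told apart.

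Stromelysin 1 is a secreted zinc protease that cuts proteoglycans, fibronectin, laminin and type IV collagen, and it activates other matrix metalloproteinases by removing their propeptides. The tissue inhibitors bind the active site of these proteases in a complex of 1 protease with 1 inhibitor. Timp1 is a soluble inhibitor induced by growth factors and cytokines. Timp3 stays bound to the matrix and also blocks sheddases of the ADAM family. Timp2 takes part with the membrane protease Mmp14 in the activation of pro-gelatinase A. In heart muscle the balance of these proteases and inhibitors is known to bear on collagen turnover during pressure load.

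The regions just before the annotated starts of the measured members are shown because AP-1 and ETS factors, whose binding sites are known in stromelysin promoters, were among the genes on the arrays. All are from the RefSeq promoter table of build GRCm38.p6 and run 5′ to 3′ on the gene's strand over the 250 bases before the start. Capitals mark the AP-1 consensus TGANTCA and the ETS core AGGAAG. Each motif was searched on both strands.
Mmp3, chr9:7445572-7445821, + strand: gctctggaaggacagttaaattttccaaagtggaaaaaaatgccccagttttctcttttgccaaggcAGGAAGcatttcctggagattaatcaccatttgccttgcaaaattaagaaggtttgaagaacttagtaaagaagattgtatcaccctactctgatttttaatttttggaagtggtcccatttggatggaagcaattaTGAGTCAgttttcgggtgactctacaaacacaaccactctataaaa
Timp1, chrX:20869916-20870165, + strand: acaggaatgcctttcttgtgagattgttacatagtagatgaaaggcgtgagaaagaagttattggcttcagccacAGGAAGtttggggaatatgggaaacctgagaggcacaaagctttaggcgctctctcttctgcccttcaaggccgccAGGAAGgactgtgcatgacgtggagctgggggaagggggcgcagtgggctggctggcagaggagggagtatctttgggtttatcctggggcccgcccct
Timp3, chr10:86300162-86300411, + strand: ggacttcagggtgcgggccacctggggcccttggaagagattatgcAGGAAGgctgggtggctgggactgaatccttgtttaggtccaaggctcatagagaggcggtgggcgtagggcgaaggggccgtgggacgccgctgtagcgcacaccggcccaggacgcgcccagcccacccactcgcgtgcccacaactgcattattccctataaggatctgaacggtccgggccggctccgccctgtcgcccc

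The 3 windows differ in composition. The Mmp3 window has a GC content of 37.6% and 1 CpG dinucleotide, the Timp1 window 54.4% and 6, and the Timp3 window 65.6% and 18. The median over 32841 windows of the table was 52.4% and 6. The AP-1 consensus lies in the Mmp3 window, 46 to 40 bases before the start, and in neither of the other two. It was found in 6.75% of all windows of this length. The ETS form AGGAAG occurs 1 time before Mmp3, 2 times before Timp1 and 1 time before Timp3, and at least 1 time in 29.5% of all windows. Other forms of the ETS site, with the shorter core GGAA, were not counted. The letters TATAAA lie 7 to 2 bases before the annotated start of Mmp3, and 12.4% of all windows hold them on either strand. These matches describe letters in the windows and show no binding.

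Mmp3 was lower in high salt on every array as deposited. Its clone stood at -0.76 on array 1, -0.79 on array 2, -0.91 on array 3 and -0.49 on array 4. The 3 pairs gave -0.76, -0.64 and -0.91, which average -0.77 ± 0.13 on the log2 scale (SD, n = 3 pairs). No array was near 0, and the spread between pairs was small against the mean. Of all clones, 6.76% were below 0 on all 4 arrays, and the same salt contrast had chosen Mmp3.

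Among 16471 clones the Mmp3 mean ranked 40 from the lowest. On single arrays the clone lay at percentile 1.46, 1.25, 2.57 and 3.18 of all clones on arrays 1 to 4. It was thus in the lowest few percent whichever dye marked the high-salt heart. The mean was -0.78 on the 2 arrays with Cy3 on high salt and -0.70 on the 2 with Cy5. Arrays 2 and 4, which measured the same 2 mice, differed by 0.30 for this clone, where the median absolute difference over all clones was 0.20.

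With arrays 1 and 2 turned, the same clone has pair values of 0.76, 0.15 and -0.91 and a mean of 0.00037 ± 0.84. In that reading the pairs point in opposite ways, so the low Mmp3 ratio rests on the direction of the deposited table.

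**Figure D1:**
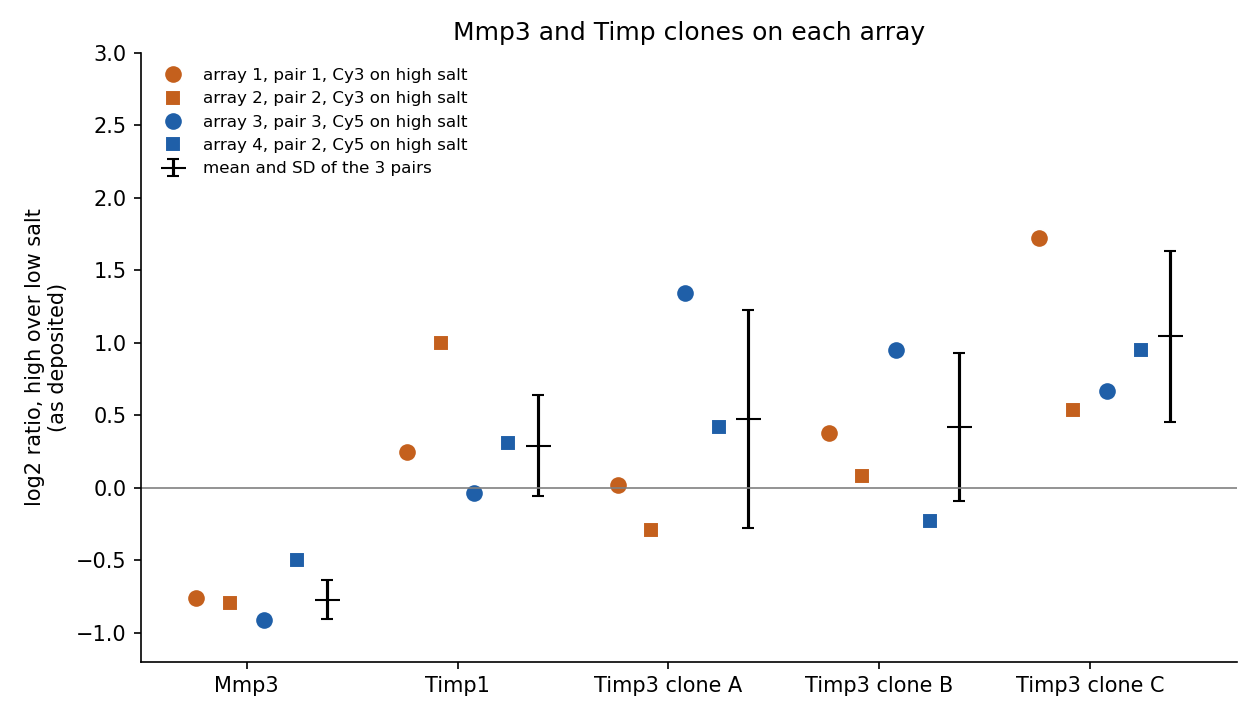
Deposited log2 ratios (vertical axis, high over low salt) of the 5 clones on each of the 4 arrays, with colour for the dye on high salt and squares for the arrays of pair 2. Black marks give the mean and SD of the 3 pairs. Mmp3 lies between -0.91 and -0.49 on all arrays, while the Timp clones lie mostly above 0 and spread more.

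The Timp1 clone was above 0 on 3 of the 4 arrays. It stood at 0.25, 1.00, -0.03 and 0.31 on arrays 1 to 4. Pair values were 0.25, 0.66 and -0.03, and their log2 mean was 0.29 ± 0.35 (SD, n = 3 pairs). The SD exceeded the mean, and pair 3 lay just below 0, so the pairs did not share a direction. Without pair 2 the mean was 0.11 and without pair 3 it was 0.45.

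Much of the Timp1 value came from array 2. Both arrays of pair 2 were above 0, but they differed by 0.69, a gap at percentile 88.4 among all clones. The mean of pair 2 was 1.00 if only array 2 was used and 0.31 if only array 4 was, which moved the gene mean to 0.41 or 0.18. With arrays 1 and 2 turned, the pairs stood at -0.25, -0.35 and -0.03 with a mean of -0.21 ± 0.16, so the sign of Timp1 depends on the reading.

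Timp3, averaged over its 3 clones, was above 0 on all arrays, at 0.71, 0.11, 0.99 and 0.38. So were 7.01% of all genes in the contrast that chose the members. The pairs gave 0.71, 0.25 and 0.99, and their log2 mean was 0.65 ± 0.38 (SD, n = 3 pairs). Pair 2 was the lowest on both of its arrays. The 3 clones did not give 1 pattern.

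Clone C was the highest of them. It stood at 1.72, 0.54, 0.67 and 0.95 on arrays 1 to 4, with a mean of 1.04 ± 0.59 (SD, n = 3 pairs), and ranked 30 from the highest of all clones. It was above 0 on all 4 arrays, as were 6.65% of all clones in the contrast that chose the members. Its percentile on single arrays ran from 92.0 on array 2 to 99.6 on array 1.

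Clones A and B were highest on array 3 instead. Clone A stood at 0.02, -0.29, 1.35 and 0.42, with a mean of 0.48 ± 0.75. Clone B stood at 0.38, 0.08, 0.95 and -0.23, with a mean of 0.42 ± 0.51. In both the SD over the 3 pairs exceeded the mean, and each was below 0 on 1 array of pair 2. Without pair 3 the mean of clone A was 0.04 and that of clone B 0.15, whereas clone C then stood at 1.23.

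The clones disagreed most in pair 1, where clone C was 1.70 above clone A, and least in pair 3, where clone A was 0.68 above clone C. The range of the 3 clone means was 0.62. Over the 646 genes with 3 clones the median range was 0.17, and 98.1% had a range as small as that of Timp3 or smaller. Those genes were not matched to Timp3 for the size of the ratio, and its gene mean lay at percentile 99.4 of all genes. Which part of the transcript each clone holds is not known here. The gene mean of Timp3 therefore averages unlike clones, and the median of the clones gave 0.53.

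With arrays 1 and 2 turned, the means of clones A, B and C became 0.56 ± 0.71, 0.14 ± 0.71 and -0.28 ± 1.27, and that of the gene 0.14. Clones A and B kept their side of 0 and clone C did not.

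**Figure D2:**
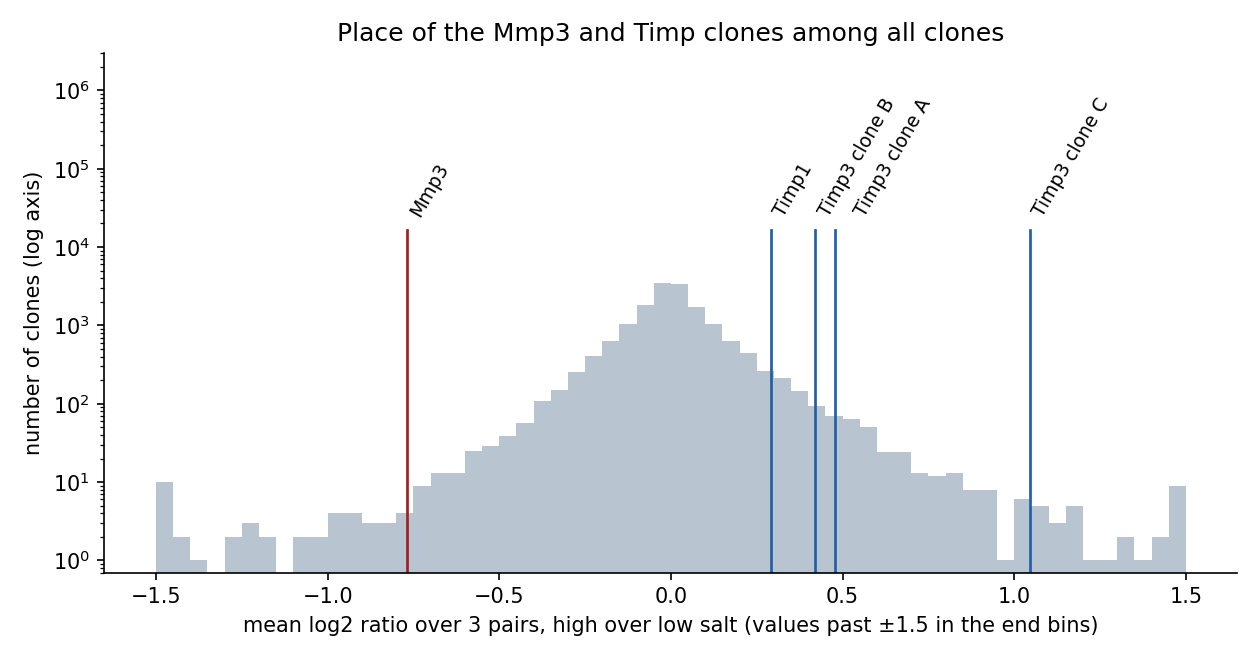
Number of clones (log axis) by mean log2 ratio over the 3 pairs, high over low salt, for all 16471 clones in bins, with lines at the 5 Mmp3 and Timp clones. The Mmp3 line lies in the low tail and the line of Timp3 clone C, at 1.04, in the high tail, while Timp1 lies at 0.29.

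The mean of Mmp3 lay below 0 and the means of the 4 Timp clones above it in the deposited values. Mmp3 was lower than the Timp1 clone and than each of the 3 Timp3 clones on all 4 arrays. The difference of log2 ratios, Mmp3 minus Timp1, was -1.01, -1.30 and -0.87 in pairs 1 to 3, with a mean of -1.06 ± 0.22 (SD, n = 3 pairs). Against Timp3 clones A, B and C the mean differences were -1.25 ± 0.87, -1.19 ± 0.65 and -1.81 ± 0.58. The smallest gap on any array was 0.27 on the scale of log2 ratios, between Mmp3 and Timp3 clone B on array 4. The order did not hold with arrays 1 and 2 turned: the Mmp3 mean of 0.00037 then lay above those of Timp1 (-0.21) and Timp3 clone C (-0.28) and below those of clones A (0.56) and B (0.14). These are differences between ratios, not between levels, and a choice of members that places Mmp3 low and inhibitors beside it fixes much of their direction.

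The limma fit over 8106 genes made 0 calls (0%) with adjusted p below the threshold of 0.05, and 441 genes, 5.44%, had an unadjusted p below it. None of the 3 measured members was called. A term for the dye on high salt was fitted to the 3 pairs as well. It is balanced against the mean that chose the members, and it rests on pairs 1 and 3, whose dyes were opposite. The dye term was -0.07 for Mmp3 (limma adjusted p = 0.697), -0.14 for Timp1 (limma adjusted p = 0.696) and 0.14 for Timp3 (limma adjusted p = 0.725). It was called for 0 of the 3 members and for 5.13% of all genes. In a design of 3 pairs this leaves 1 residual degree of freedom, so a miss does not show that the dye had no effect.

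**Figure D3:**
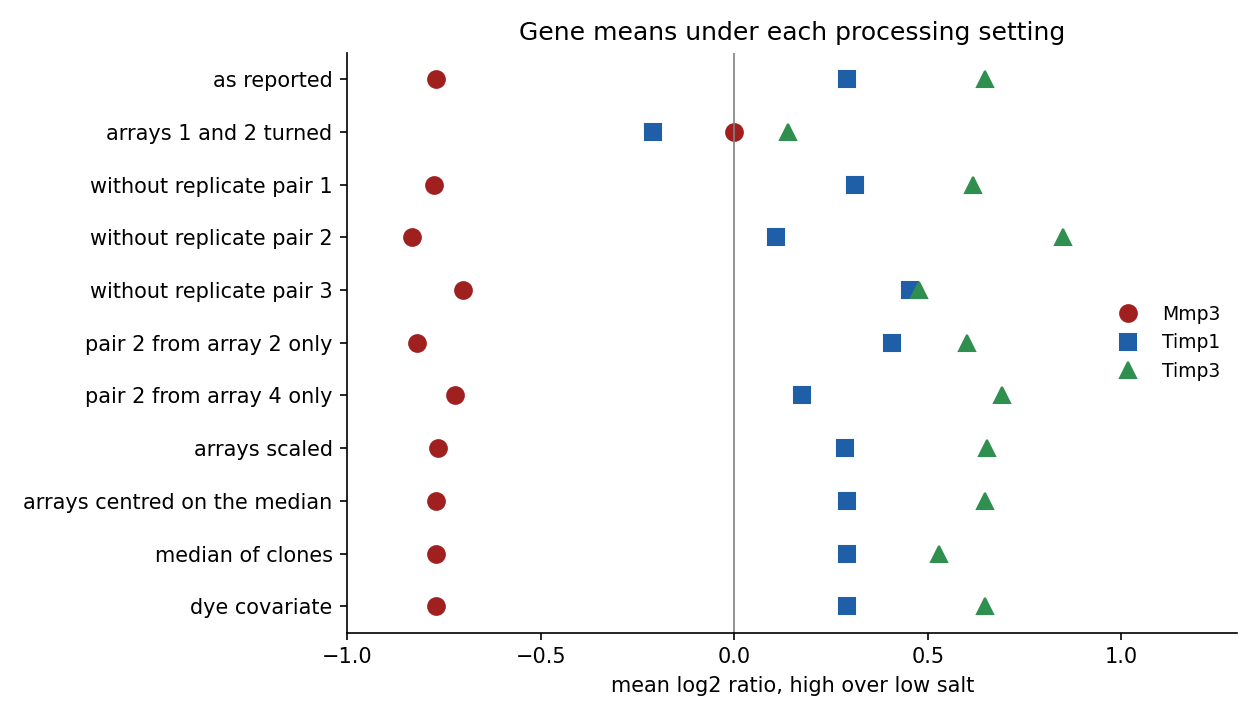
Mean log2 ratio (horizontal axis, high over low salt) of Mmp3, Timp1 and Timp3 as reported and under each of the 10 other settings. Mmp3 stays between -0.83 and -0.70 in all but the turned reading, where it is at 0.00037, and Timp1 crosses 0 there.

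The genes whose 4 array values lay nearest to a member's were picked by Euclidean distance among 8106 genes. For Mmp3 these were Fah at 0.50, Ankrd33b at 0.52, Ech1 at 0.55 and Dglucy at 0.58. All 4 were below 0 on every array, as were 7.75% of all genes. Their means lay between -0.60 for Ech1 and -0.47 for Dglucy, so none was as low as Mmp3. For Timp1 they were Resf1 at 0.16, D17H6S56E-5 at 0.18, Igsf3 at 0.18 and Isg20 at 0.21. Each of them had its highest value on array 2, as Timp1 did. For Timp3 they were Rad18 at 0.28, Wee1 at 0.28, Foxo3 at 0.35 and Fam214a at 0.37, each highest on array 3. These likenesses are over 4 arrays of 6 mice. The pick used the same array values, so the shared signs and the shared highest array largely follow from it.

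The other matrix metalloproteinases showed no common shift. Of 13 measured out of 22 listed, 7 were above 0 and 6 below, with a median log2 ratio of 0.0094 against -0.00026 over all genes. In limma 0 were called, and at an unadjusted p under 0.05 there was 1 higher and 0 lower, beside 2.81% of all genes higher and 2.63% lower. The highest was Mmp2, gelatinase A, at 0.36, 0.58 and 0.59 in the 3 pairs with a mean of 0.51 ± 0.13 (SD, n = 3 pairs). Its 2 clones differed, at 0.16 ± 0.45 and 0.85 ± 0.20, and with arrays 1 and 2 turned the gene mean was 0.24. The lowest was Mmp13, a collagenase, at -0.09 ± 0.16. The deposited Mmp3 mean lay below all 13, and it had been chosen for its low value. In the turned reading it lay within their range, which then ran from -0.10 for Mmp13 to 0.29 for Mmp9.

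The list of adamalysins, which shed membrane proteins or cut proteoglycans, also held Bmp1, a protease of another family, at 0.07. Among its 14 genes measured of 23 listed, 7 were above and 7 below 0, with a median of 0.03. None was called by limma. At an unadjusted p under 0.05 there were 0 higher and 1 lower, beside 2.81% and 2.63% of all genes. The 1 lower was Adamts1, named outside the rule for named genes, at -0.61 ± 0.45 (SD, n = 3 pairs) and at 0.26 when turned. Adamts4, an aggrecanase, had the lowest mean, -0.93 ± 1.36, but did not pass that threshold. That mean came from pair 3 at -2.48, beside -0.37 and 0.07. Without pair 3 it was -0.15, and turned it was -0.74. Adam9 was the highest at 0.16 ± 0.21, and at 0.04 without pair 3.

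Timp4, the tissue inhibitor best known from heart, is named here as the remaining family member, outside the rule for named genes. Its 3 clones stood at 0.12 ± 0.54, 0.0065 ± 0.10 and 0.24 ± 0.44 (SD, n = 3 pairs), and the gene at 0.12 ± 0.28. The pairs gave 0.20, -0.19 and 0.35, so both signs occurred. Of the 8 measured inhibitors and partners outside the members, of 16 listed, 4 were above and 4 below 0, with a median of 0.05. In limma 0 were called. An unadjusted p under 0.05 was found for 1 above and 0 below 0, beside 2.81% and 2.63% of all genes. Pcolce, which enhances procollagen processing, was the highest at 0.78 ± 0.51. It stood at -0.39 with arrays 1 and 2 turned. Bsg, the membrane glycoprotein known as an inducer of metalloproteinases, was the lowest at -0.34 ± 0.81. It stood at 0.06 without pair 3 and at -0.70 when turned, and its dye term was called (-0.81, limma adjusted p = 0.025).

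Plasmin is a known activator of pro-stromelysin. Of 16 listed genes of the plasminogen system and related serpins 8 were measured, 5 above and 3 below 0, with a median of 0.14. Over all genes 49.8% were above 0. The serpins Serpinf1, Serping1 and Serpinh1, at 0.85, 0.17 and 0.42, were among those above 0. The other measured genes fell on both sides, with Plau and Anxa2 above and Plg, Plat and Plaur below 0. Limma called 0, and an unadjusted p under 0.05 was found for 2 above and 0 below 0, beside 2.81% and 2.63% of all genes. Serpinf1, a secreted serpin without protease inhibition, was the highest at 0.85 ± 0.35 (SD, n = 3 pairs), and at -0.28 when turned. Plaur, the urokinase receptor, was the lowest at -0.48 ± 0.85, with pair 3 at -1.43 and a mean of -0.0023 without that pair. With arrays 1 and 2 turned, 0 of the 8 genes were above 0 and the median was -0.16. Of all 8106 genes 3784 were above 0 in that reading, with a median of -0.01.

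Among 10 measured cathepsins, cystatins and related proteases of 21 listed, 8 were above and 2 below 0, with a median of 0.16. Over all genes 49.8% were above 0. Limma called 0, and an unadjusted p under 0.05 was found for 1 above and 0 below 0, beside 2.81% and 2.63% of all genes. Lgmn, the lysosomal protease legumain, was the highest at 0.46 ± 0.23 (SD, n = 3 pairs), and Ctsl, cathepsin L, the lowest at -0.17 ± 0.10. In the turned reading the list median was -0.14, so its side of 0 is not settled.

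Matrix proteins that these enzymes act on, listed together with the membrane adhesion protein Cdh1 (-0.02), lay mostly above 0 as deposited. Of 29 measured of 38 listed, 22 were above and 7 below, 14 were above 0 on all 4 arrays and 0 below, and the median was 0.37. Over all genes 49.8% had a mean above 0, and 7.01% were above and 7.75% below 0 on all 4 arrays. In limma 0 were called. An unadjusted p under 0.05 was found for 12 above and 0 below 0, beside 2.81% and 2.63% of all genes. Bgn, the small proteoglycan biglycan, was the highest at 1.50 ± 1.05 (SD, n = 3 pairs), with pair 1 at 2.68, and Col2a1, a cartilage collagen, the lowest at -0.11 ± 0.21. With arrays 1 and 2 turned, 9 of the 29 were above 0 and the median was -0.04, beside 3784 of all 8106 genes above 0. Earlier results of these arrays, with matrix genes above 0, were known when this list was made, so its count is no independent evidence.

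Among factors and cytokines known to act on stromelysin or Timp1 transcription, 24 of 31 listed were measured. As deposited 8 were above and 16 below 0, with a median of -0.08, beside 50.2% of all genes below 0. Turned, 11 were above 0 and the median was -0.04, beside 3784 of all 8106 genes above 0. Limma called 0, and an unadjusted p under 0.05 was found for 1 above and 5 below 0, beside 2.81% and 2.63% of all genes. The list was made with earlier results of these arrays known, so its counts are no independent evidence. Egr1, an immediate-early zinc finger factor, was the lowest at -2.30 ± 1.00 (SD, n = 3 pairs), below 0 on every array from -3.30 on array 1 to -1.29 on array 2. Turned, its mean was 0.33. Tgfb2, a transforming growth factor, was the highest at 0.28 ± 0.28 and stood at -0.24 when turned. Of the AP-1 subunits, 4 of 5 measured were below 0, from -0.99 for Junb to 0.08 for Jun, and 3 of 5 when turned. Fos and Junb, like Egr1 and 7.75% of all genes, were below 0 on all 4 arrays. Junb stood at -1.80 on array 3, while Fosl1 and Fosl2 had both signs. A link between these factors and the Mmp3 ratio was not tested. Of the 3 ETS factors 1 was below 0 and the range was -0.12 to 0.02, and when turned 2 were below 0 with a range of -1.05 to 0.17. Ets1 had the mean of 0.02, but it stood at 1.09, 1.05, -1.37 and -0.35 on arrays 1 to 4, and its dye term was called (-1.23, limma adjusted p = 0.038). These 2 groups were singled out after their values were seen, and 0 of their genes were called for salt.

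**Figure D4:**
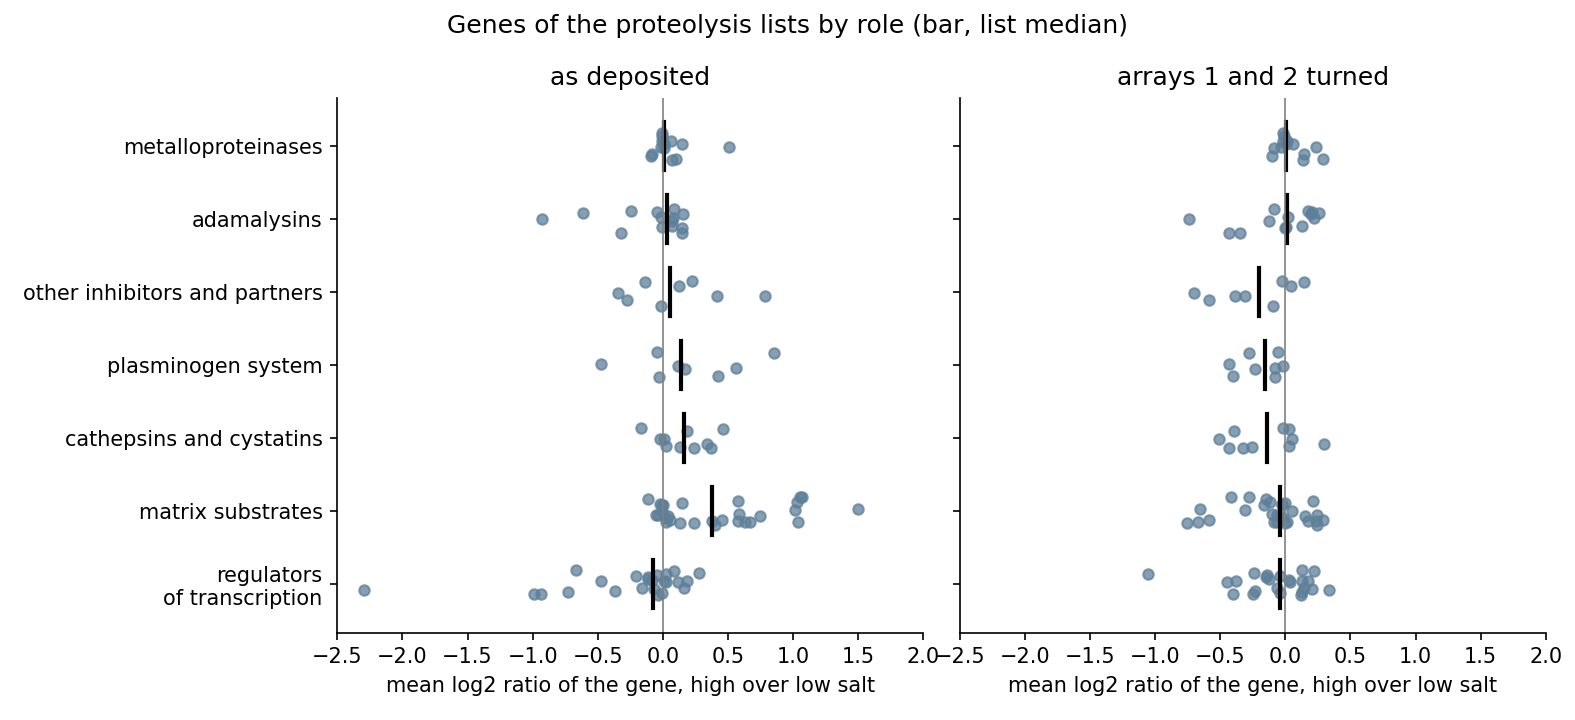
Mean log2 ratio of each measured gene (points; horizontal axis, high over low salt) in 7 lists of the proteolysis system by role, with list medians as bars, as deposited (left) and with arrays 1 and 2 turned (right). The matrix substrates have a median of 0.37 as deposited and -0.04 when turned, while the metalloproteinases stay near 0 in both.

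Markers of several cell types had ratios off 0 as well, and their part in the members' values was not tested. Of 10 fibroblast markers 7 were measured and 6 were above 0, with a median of 0.13 and a range from -0.04 for Tcf21 to 0.81 for Vim. Turned, 4 of the 7 were above 0 with a median of 0.0047. Over all genes 49.8% were above 0 as deposited, and 3784 of 8106 when turned. Smooth muscle and pericyte markers were above 0 in 4 of 4 measured, with a median of 0.24, and in 1 of 4 when turned, with a median of -0.10. Macrophage and leukocyte markers had 3 of 12 measured, from -0.39 for Cd14 to 0.45 for Lyz2. Of 7 neutrophil markers 2 were measured, S100a9 at -1.42 and Csf3r at -0.13, and both were below 0 on all 4 arrays. So were the fibroblast marker Tcf21, the cardiomyocyte marker Atp2a2 and 7.75% of all genes. The median of the 2 neutrophil markers was -0.78, and -0.13 when turned. Endothelial markers had 3 of 8 measured, with a median of 0.15, and of -0.07 when turned. Only 2 of 12 cardiomyocyte markers were measured, Ryr2 at 0.05 and Atp2a2 at -0.15.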

How the data were processed

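Ventricle RNA of 3 high-salt and 3 low-salt mice was compared on 4 cDNA arrays with 2 dyes. For every feature the authors deposited a log ratio of both dyes on each array, and it was read as log2. What is not given in the sources used here is its base, background correction, normalization and direction. Array medians over all features ran from -0.0062 to 0.01. Of 17664 features, 457 had no value. A further 736, at 23 positions that recur without a gene name in all 32 print blocks, were left out as likely control spots, which left 16471 clones. Positions were inferred from the feature numbers.

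Clones with 1 symbol in the platform annotation (12563 features, 12555 matched by gene ID to RefSeq) were averaged into 8106 genes with avereps. Arrays 2 and 4 were averaged first. Pair values were fitted with an intercept in limma 3.58.1 (R 4.3.3, lmFit and eBayes), with Benjamini-Hochberg adjustment at 0.05 over all genes or clones. The fit was checked on simulated log ratios without a dye effect. That check does not cover the negative correlations between arrays of opposite dye seen here. Intensities were not used. Precision is limited by the 4 arrays. The labels give each mouse its own ID, so the 3 pairs are separate animals.

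The members and lists were chosen with earlier results of these data known. Named genes were the members, the 4 genes nearest to each by Euclidean distance over the 4 arrays, and the lowest and highest gene of each list of the proteolysis system. Alternatives were a turned direction, leaving out each pair, either array of pair 2, scaling, centring, clone medians, a dye covariate and all features.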

Additional observations from a re-analysis of the deposited data

How the results depend on the processing

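With arrays 1 and 2 turned, the mean log2 ratio became 0.00037 for Mmp3, -0.21 for Timp1 and 0.14 for Timp3, each a move of over 1 SD between pairs. Under the 9 other settings, 27 of 27 member means moved by less. Many of them could not do otherwise. With 3 pairs, leaving out 1 cannot move a mean by 1 SD, and the balanced dye covariate cannot move it at all. Clone medians can change only Timp3, since Mmp3 and Timp1 have 1 clone each. The count is therefore no evidence of stability. Leaving out 1 pair gave -0.83 to -0.70 for Mmp3, 0.11 to 0.45 for Timp1 and 0.48 to 0.85 for Timp3. Without pair 1 or 3 the dyes are unbalanced. Genes called at an adjusted p under 0.05 in limma were 0 in all 11 settings, and clones called were 0 in the 6 run for clones. At an unadjusted p under 0.05 the 106 genes of the 7 proteolysis lists gave 18 higher and 6 lower (17.0% and 5.66%, beside 2.81% and 2.63% of all genes). Of the 18 higher, 12 were matrix substrates, a list made with matrix genes known to be above 0. The share of higher genes is thus no independent evidence. When turned, the 106 genes gave 4 higher and 13 lower (3.77% and 12.3%, beside 6.97% and 13.8%). Leaving out a pair gave 17 to 29 in all, beside 24. The dye term called 0 of 3 members also with scaled arrays. Pair numbers were used as the replicate, and each ratio already sets 2 mice against each other, so no further block was fitted. With 3 pairs and no intensities, signal over background could not be weighed.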

Other observations

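A further 2 clones carry the symbols Timp2 and Cep295nl together in the platform annotation and were not counted as Timp2. The first stood at -0.42, 0.13, -0.23 and 0.36 on arrays 1 to 4, and averaged -0.14 ± 0.34 on the log2 scale (SD, n = 3 pairs). The second stood at 1.76, 0.57, 0.05 and 0.73, with a mean of 0.82 ± 0.87. It was above 0 on all 4 arrays, as were 6.65% of all clones, and its pairs ranged from 1.76 to 0.05. The 2 clones did not share a direction, and which of both genes each one reads was not settled here.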
